A study of Mus musculus with 20 samples.

Results

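The Notch pathway was followed here through 10 of its genes in neural stem cells and neural progenitors sorted from the neonatal mouse brain. The genes were found by their names in the expression table, once each, among 45705 genes. They were the ligands Dll1, Dll3 and Jag1, the receptors Notch1 and Notch2, the nuclear effector Rbpj, and the target genes Hes1, Hes5, Hey1 and Hey2. RNA was sequenced from 5 populations with 4 libraries each, 1 from every batch numbered 1 to 4. The cells came from the periventricular tissue of Swiss Webster pups at postnatal day 5, pooled over a litter with both sexes, and were sorted on the surface antigens CD133, LeX (CD15), CD140a and NG2. Neural stem cells (NSC) were sorted as CD133+ LeX+ NG2- CD140a-. All 4 progenitors were sorted as NG2+ CD133-, and they differed in the other antigens. BNAP/GRP1 cells were CD140a- LeX+, and GRP2/MP3 cells were CD140a- LeX-. GRP3 cells were CD140a+ LeX-, and PFMP cells were CD140a+ LeX+. These names rest on surface antigens, so a population could hold more than 1 cell type. The labels name no transgene and no agent given to the pups.

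The values are RPKM, in which reads are divided by the length of the gene and by the size of the library. RPKM allows levels to be compared between genes, with the limit that the amplification of polyA RNA used here favours the 3' end of a transcript, which weighs on long genes. Libraries are written as population and batch number (NSC 3 came from batch 3). Libraries differed in ways that touch the Notch genes. In batch 3, the libraries labelled GRP3 and PFMP held Pdgfra, the gene of the CD140a antigen, at 3.41 and 3.84 RPKM, against 96.9 to 803 RPKM in the GRP3 and PFMP libraries of the other batches. The summed level of 10 microglia markers was between 1869 and 2095 RPKM in the NSC, GRP3 and PFMP libraries of batch 3. It was 2103 and 2010 RPKM in BNAP/GRP1 3 and GRP2/MP3 3, so the populations of batch 3 were nearly alike in this sum. Calls that change without batch 3 are given both ways. Of the 50 Notch gene values in batch 3, 20 were under 1 RPKM, against 6, 5 and 0 of 50 in batches 1, 2 and 4. BNAP/GRP1 4 had the lowest estimated depth, at 0.0395 of that of BNAP/GRP1 1, although it listed 38191 genes above 0, against 31999 in BNAP/GRP1 1. Its median over all genes was 8.30 RPKM, against 0 to 2.02 RPKM in the other 19 libraries. A level of a few RPKM in that library is thus near the middle of its own range. The NSC libraries carried high levels of ependymal markers, with a sum over 8 genes of 1279 to 13830 RPKM, against at most 595 RPKM in any progenitor library.

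Notch signalling passes between neighbouring cells. A ligand of the Delta or Jagged family on one cell binds a Notch receptor on the next, the receptor is cut by an ADAM protease and by gamma-secretase, and its freed intracellular domain moves to the nucleus. There it joins the DNA-binding protein RBPJ and a Mastermind coactivator and switches on genes of the Hes and Hey families, which encode repressors of proneural genes. In the germinal zone of the brain the pathway is known for holding neural stem cells undifferentiated, while cells that begin to differentiate raise their Delta ligands. Dll3 differs from the other Delta ligands in that it does not activate Notch on neighbouring cells and is known mainly as an inhibitor within its own cell.

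In the mouse genome (GRCm38, GENCODE vM21), the ligand Dll1 lies at chr17:15367354-15376872, Dll3 at chr7:28293553-28302238 and Jag1 at chr2:137081456-137116644, all on the minus strand. The receptor Notch1 lies at chr2:26457903-26516663 on the minus strand and Notch2 at chr3:98013527-98150361 on the plus strand. Rbpj lies at chr5:53466152-53657362 on the plus strand. Of the targets, Hes1 at chr16:30064384-30067796 and Hes5 at chr4:154960923-154962371 are on the plus strand, and Hey1 at chr3:8663359-8667256 and Hey2 at chr10:30832359-30842801 on the minus strand. All 10 are protein-coding genes. Exons of Notch1, Dll1 and Hes5 overlap noncoding genes on the opposite strand (0610009E02Rik and Gm13568, A930024N18Rik, and Gm20421), and exons of Notch2 overlap Gm42820 on its own strand. Whether reads were counted by strand is not given in the sources used here, so reads of these partners cannot be told apart.

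RefSeq promoter windows (GRCm38.p6, 250 bases before to 50 bases after the start) were found for 8 of the 10 genes, with 10 windows in all. Hes1 and Hey1 were not in the table. The windows of Dll3, the ligand that rose in the CD140a+ progenitors in the model with a batch term, and of Hes5, a direct Notch target, are shown in capitals where they hold the core of the RBPJ site, TGGGAA or its reverse complement TTCCCA, or CAGCTG, an E-box, the kind of site that basic helix-loop-helix proteins bind. The Dll3 window is chr7:28301736-28302035 on the minus strand, and the Hes5 window chr4:154960673-154960972 on the plus strand.
Dll3: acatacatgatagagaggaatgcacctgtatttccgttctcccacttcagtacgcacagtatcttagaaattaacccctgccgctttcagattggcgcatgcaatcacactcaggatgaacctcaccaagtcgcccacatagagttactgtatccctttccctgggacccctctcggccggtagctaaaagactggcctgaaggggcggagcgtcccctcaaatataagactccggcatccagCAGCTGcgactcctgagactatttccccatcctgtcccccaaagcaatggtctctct
Hes5: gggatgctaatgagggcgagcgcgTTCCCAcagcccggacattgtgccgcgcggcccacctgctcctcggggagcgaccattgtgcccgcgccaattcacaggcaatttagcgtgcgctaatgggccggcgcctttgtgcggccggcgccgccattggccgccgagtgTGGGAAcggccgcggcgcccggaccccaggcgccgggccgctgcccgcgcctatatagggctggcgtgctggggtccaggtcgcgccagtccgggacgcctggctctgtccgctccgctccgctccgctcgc
The Hes5 window held the RBPJ core on both strands, with first bases 226 and 82 bases before the start. The Dll3 window held no RBPJ core and a single CAGCTG, which began 7 bases before the start. Both strands were searched, and no match of any motif shared a base with another. Among the 8 genes, the RBPJ core was present in the windows of 3 (Rbpj, Hes5 and Hey2), CAGCTG in those of 3 (Dll1, Dll3 and Jag1), CACGCG, a site of HES and HEY proteins, in those of 3 (Notch2, Dll1 and Jag1), and the E-box CACGTG in 0. Both Dll1 matches lay in its window at chr17:15376883-15377182, which is wholly upstream of the Dll1 position given above. The last 50 bases of that window occurred in 0 of 6 Dll1 transcripts, and the other Dll1 window held no match. Over all 32851 windows of the table, 25.6% held the RBPJ core, 16.3% CAGCTG, 9.27% CACGCG and 7.15% CACGTG. These shares are by window and the counts above by gene, where Dll1 and Rbpj had 2 windows each. These matches describe the sequence and were not compared with binding.

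Every one of the 10 genes reached at least 1 RPKM in at least 4 libraries, the filter for testing. The targets Hes1 and Hes5 and the ligand Dll3 had the highest means over the 20 libraries, at 56.7, 32.6 and 50.2 RPKM. Hey1 followed with 20.4 RPKM and Rbpj with 17.9 RPKM. The receptors Notch1 and Notch2 had means of 6.99 and 11.3 RPKM, and the ligands Dll1 and Jag1 of 10.7 and 7.47 RPKM. The limit for long genes given above bears on this order. Exons cover 14232, 10782 and 12750 bases in Notch1, Notch2 and Rbpj, against 2037, 1363 and 2850 in Hes1, Hes5 and Dll3. Hey2 was the lowest gene, with a mean of 2.00 RPKM, a highest value of 7.90 RPKM and a listed level of 0 in 3 libraries. Notch1, Rbpj and Hes1 were at 1 RPKM or more in all 20 libraries.

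**Figure D1:**
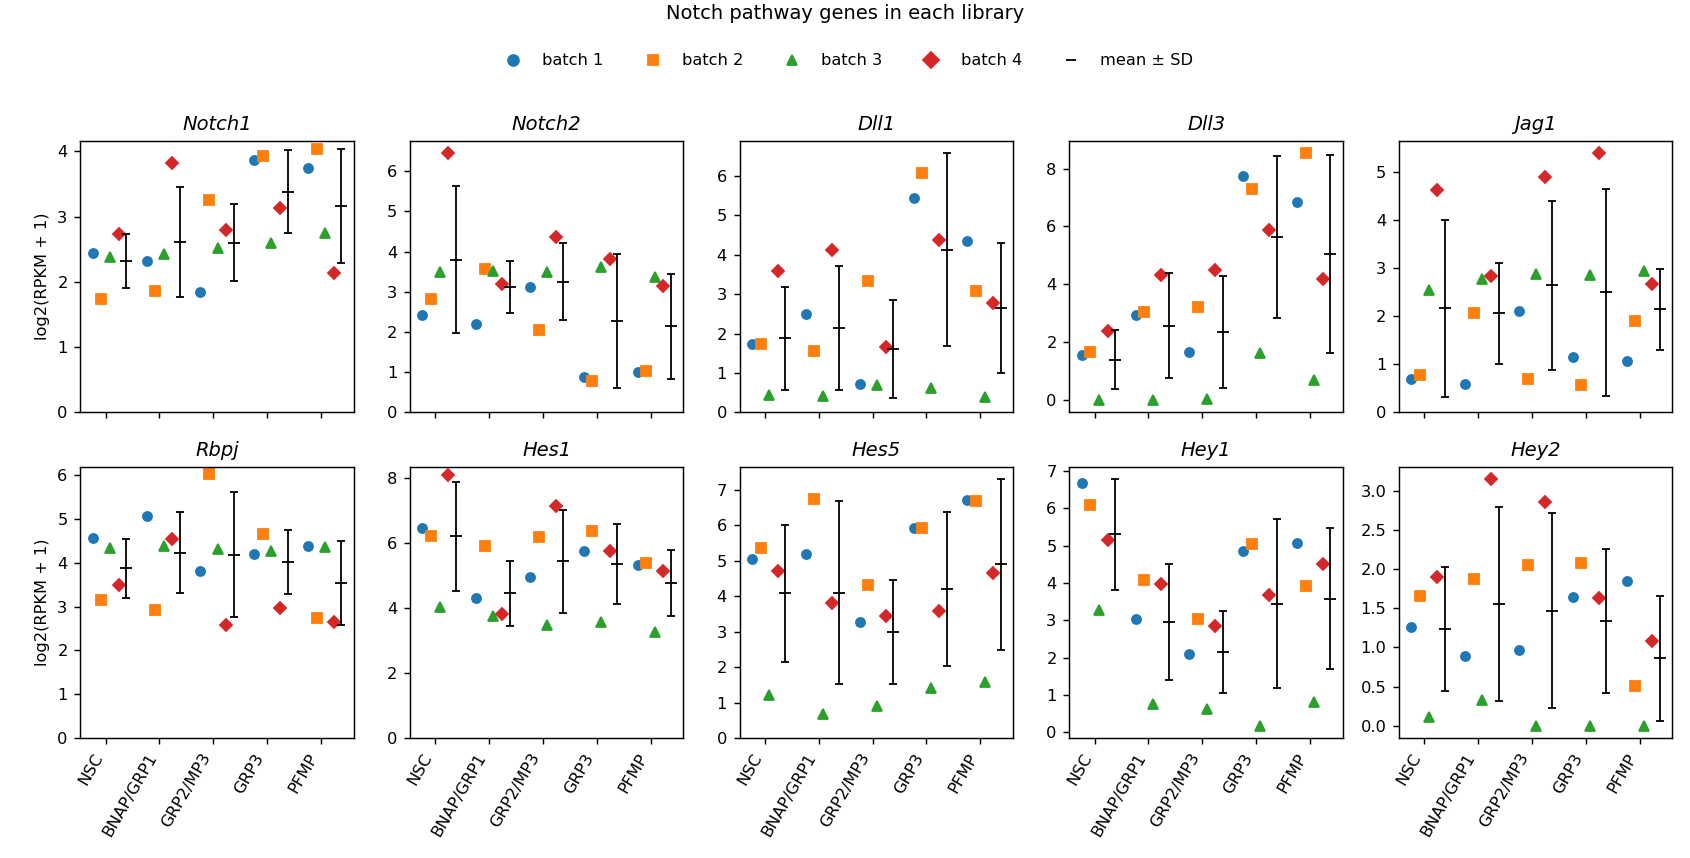
Level of each of the 10 Notch pathway genes as log2(RPKM + 1) (vertical axis) in the 5 populations (horizontal axis), with 1 marker for each library, coloured by batch, and the mean ± SD of the 4 libraries in black. Hey1 is highest in NSC, Dll3 is highest in GRP3 and PFMP, and the libraries of batch 3 (green triangles) lie lowest for Dll1, Dll3, Hes5 and Hey1 in every population.

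Ranked within their own library, Hes1 stood between the 72.1 and 99.1 percentile of all genes, and Rbpj between the 77 and 96.4 percentile. Dll3 ran from a listed level of 0 in NSC 3 and BNAP/GRP1 3 to the 99.0 percentile in PFMP 2. In the libraries of GRP3 and PFMP outside batch 3, Dll3 lay at or above the 90.2 percentile, and in NSC outside batch 3 between the 72.5 and 73.5 percentile. In BNAP/GRP1 4, where the 10 genes ran from 6.18 to 22.4 RPKM, Jag1, Hey2 and Notch2 lay at the 35.8, 47.4 and 49.0 percentile.

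**Figure D2:**
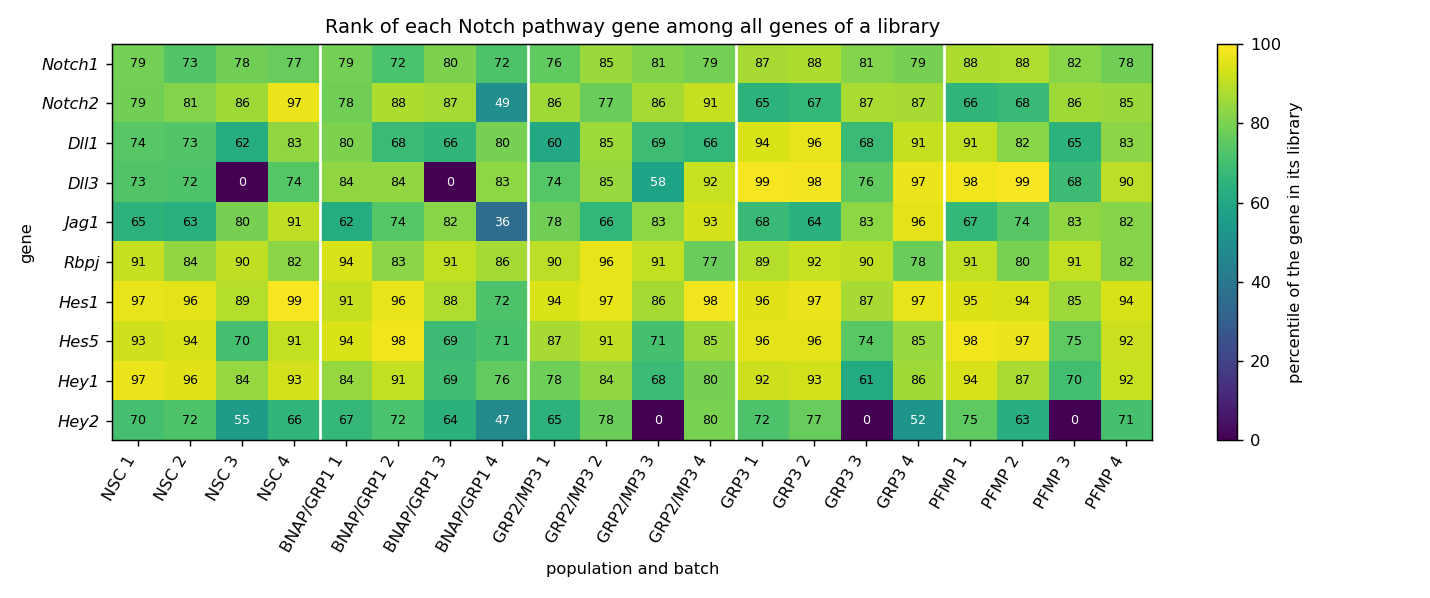
Percentile of each Notch pathway gene (rows) among all genes of its own library (columns, by population and batch) (dark for low, yellow for high, 0 where it is listed at 0). Hes1 and Rbpj are in the upper ranks of every library, and Dll3 reaches its top ranks in GRP3 and PFMP outside batch 3.

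Each progenitor was compared with NSC, since the progenitors are held to descend from the stem cells, on log2(RPKM + 1) with limma, and a gene was called at an adjusted p (Benjamini-Hochberg, over all 27614 genes tested) under 0.05. When only the population entered the model, 0 of the 10 genes were called against NSC in BNAP/GRP1, where 0.76% of all genes were called, and 0 also in PFMP (1.14%), GRP3 (1.05%) and GRP2/MP3 (1.12%). None was called between NSC and the mean of the 4 progenitors (1.98% of all genes). None was called between the CD140a+ pair (GRP3 and PFMP) and the CD140a- pair (BNAP/GRP1 and GRP2/MP3), a comparison in which 0% of all genes were called. At an unadjusted p under 0.05, 1 gene passed in each of the 4 comparisons with NSC (Hey1 in BNAP/GRP1 and GRP2/MP3, Dll3 in GRP3 and PFMP), 2 passed for NSC against the mean, and 1 by CD140a. All genes passed this mark at 5.90%, 5.79%, 5.62% and 5.88% in the 4 comparisons with NSC, at 6.87% for the mean and at 4.41% by CD140a.

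The labels name the batch of each library, and the share of the spread that the batch accounted for differed between genes. With the batch in the model the SE of a difference from NSC went from 1.35 to 0.48 for Hes5. For Notch1 it went from 0.57 to 0.54, and for Rbpj from 0.70 to 0.61. With the batch number as a replicate block, Hey1 fell in BNAP/GRP1 and GRP2/MP3 and was higher in NSC than in the mean of the progenitors, and Dll3 rose in GRP3, in PFMP and in the CD140a+ pair. That is 1 of 10 genes against 2.09%, 3.08%, 2.6% and 2.79% of all genes in BNAP/GRP1, GRP2/MP3, GRP3 and PFMP, 2 of 10 against 4.36% for NSC and the mean, and 1 of 10 against 1.44% by CD140a. The other 8 genes were not called in any comparison in either model. Without batch 3 and with no batch term, 1 of 10 genes was called in GRP2/MP3 (1.81% of all genes), GRP3 (1.68%), PFMP (1.75%) and by CD140a (1.94%), 2 of 10 for NSC and the mean (2.55%), and 0 in BNAP/GRP1 (1.13%). With the block the counts without batch 3 were the same, beside 2.7%, 2.43%, 2.51%, 2.8%, 3.53% and 1.66% of all genes in that order. In the pooled cells of a sorted population, fewer cells with a transcript and less transcript per cell cannot be told apart.

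**Figure D3:**
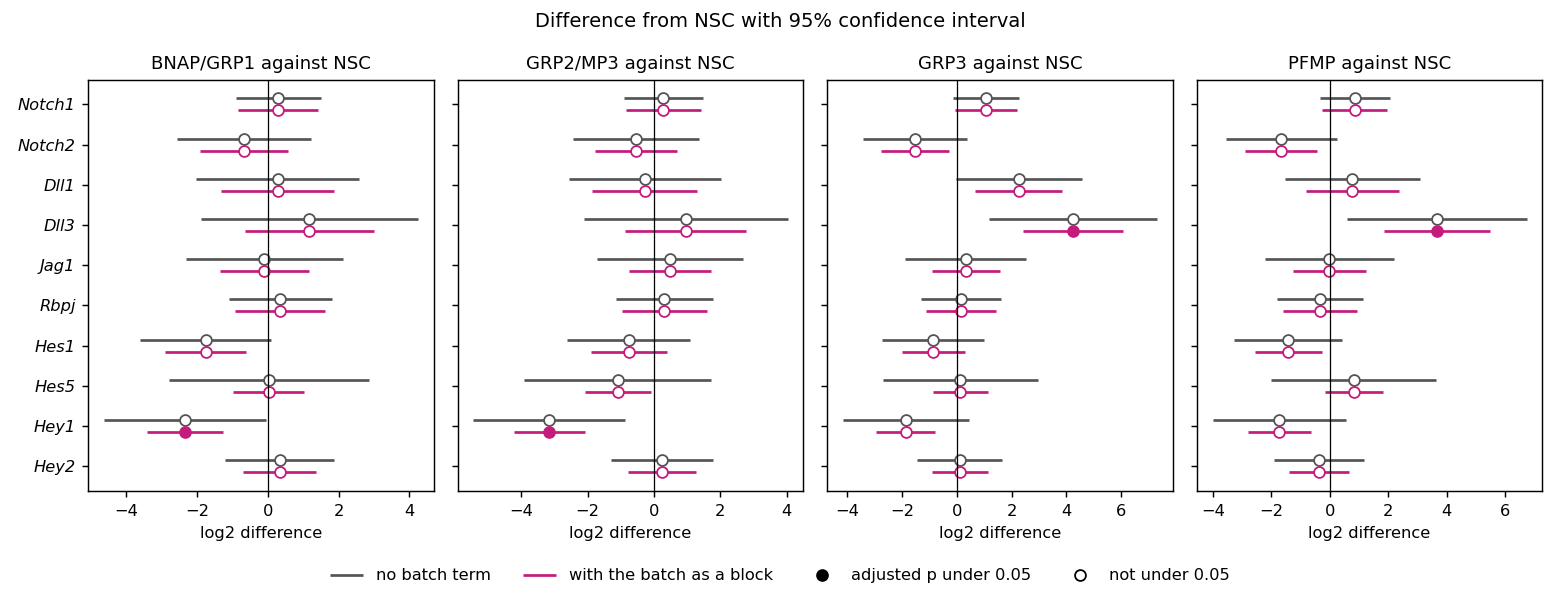
Difference from NSC in mean log2(RPKM + 1) (horizontal axis) for each Notch pathway gene (vertical axis) and progenitor (panels), with the 95% confidence interval of the model with no batch term (grey) and with the batch as a block (magenta). Filled circles have an adjusted p under 0.05, which are Dll3 in GRP3 and PFMP and Hey1 in BNAP/GRP1 and GRP2/MP3, with the block alone.

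The ligand Dll3 was the member with the widest range. In NSC it was at 1.91, 2.15, 0 and 4.26 RPKM in batches 1 to 4, in BNAP/GRP1 at 6.67, 7.19, 0 and 18.8 RPKM, and in GRP2/MP3 at 2.17, 8.32, 0.0349 and 21.4 RPKM. In GRP3 it was at 213, 157, 2.05 and 58.1 RPKM, and in PFMP at 114, 368, 0.600 and 17.3 RPKM. Within each batch both CD140a+ libraries were above the NSC library, and in batches 1, 2 and 3 both were also above both CD140a- libraries. In batch 4 PFMP, at 17.3 RPKM, was below both CD140a- libraries, and GRP3 was above them. The median over all genes was 8.30 RPKM in BNAP/GRP1 4 and 0.00791 RPKM in PFMP 4. By percentile of all genes in its own library, Dll3 was at 90.2 in PFMP 4, 82.9 in BNAP/GRP1 4 and 91.7 in GRP2/MP3 4. Over all batches the range of GRP3 overlapped with those of NSC, BNAP/GRP1 and GRP2/MP3 through its batch 3 library alone. PFMP overlapped with NSC through batch 3 alone, and with the CD140a- progenitors through batches 3 and 4.

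Dll3 was higher than in NSC by 4.24 in GRP3 on the log2(RPKM + 1) scale (SE 1.47, 95% interval 1.17 to 7.31, limma adjusted p = 0.367 with no batch term). With the replicate block the interval was 2.42 to 6.06 and the limma adjusted p 0.00828. In PFMP the difference was 3.66 (SE 1.47, interval 0.59 to 6.74, limma adjusted p = 0.552), and 0.0244 with the block. The CD140a+ pair stood 2.89 above the CD140a- pair (SE 1.04), with limma adjusted p of 0.838 and, with the block, 0.0377. NSC was below the mean of the progenitors by a log2 difference of -2.51 (limma adjusted p = 0.681, and 0.0428 with the block). Without batch 3 in any population, and with no batch term, these 4 differences were 5.11, 4.66, 3.48 and -3.15, with limma adjusted p of 0.0104, 0.0196, 0.0148 and 0.0386. In BNAP/GRP1 and GRP2/MP3 the differences of Dll3 from NSC were 1.17 and 0.96, with intervals of -1.90 to 4.24 and -2.12 to 4.03.

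Genes of oligodendrocyte progenitors (OPCs) moved with Dll3. The summed level of 9 OPC markers was 4.89 to 140 RPKM in NSC, 5.33 to 206 RPKM in BNAP/GRP1 and 3.56 to 230 RPKM in GRP2/MP3, and in GRP3 and PFMP it was 16.6 to 4387 and 19.6 to 3251 RPKM, with the lowest value of each in batch 3. In GRP3 and in PFMP 0 of the 9 markers were called with no batch term, and 6 of 9 rose with the block (Pdgfra, Olig1, Olig2, Sox10, Lhfpl3 and Gpr17), with median log2 differences over the list of 4.20 and 3.82. In no library of GRP3 or PFMP was any of the 9 at 0. Pdgfra itself, whose antigen defined the gate, differed between the CD140a+ and CD140a- pairs by 4.35, with limma adjusted p of 0.404 without a batch term and 0.0377 with the block. Microglia markers moved the other way between the pairs. Their sum was at most 118 RPKM in GRP3 and PFMP outside batch 3 and at least 110 RPKM in every CD140a- library, and 9 of 10 fell in the CD140a+ pair with the block. Of 8 pericyte markers Pdgfrb and Rgs5 fell there with the block, and all 8 had values below the CD140a- pair (median -1.88). All 10 endothelial markers also did (median -1.29). Of these 0 were called, and 8 were under an unadjusted p of 0.05 in limma with the block, beside 12.2% of all genes. The part of any of these cells in the Dll3 results was not tested.

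**Figure D4:**
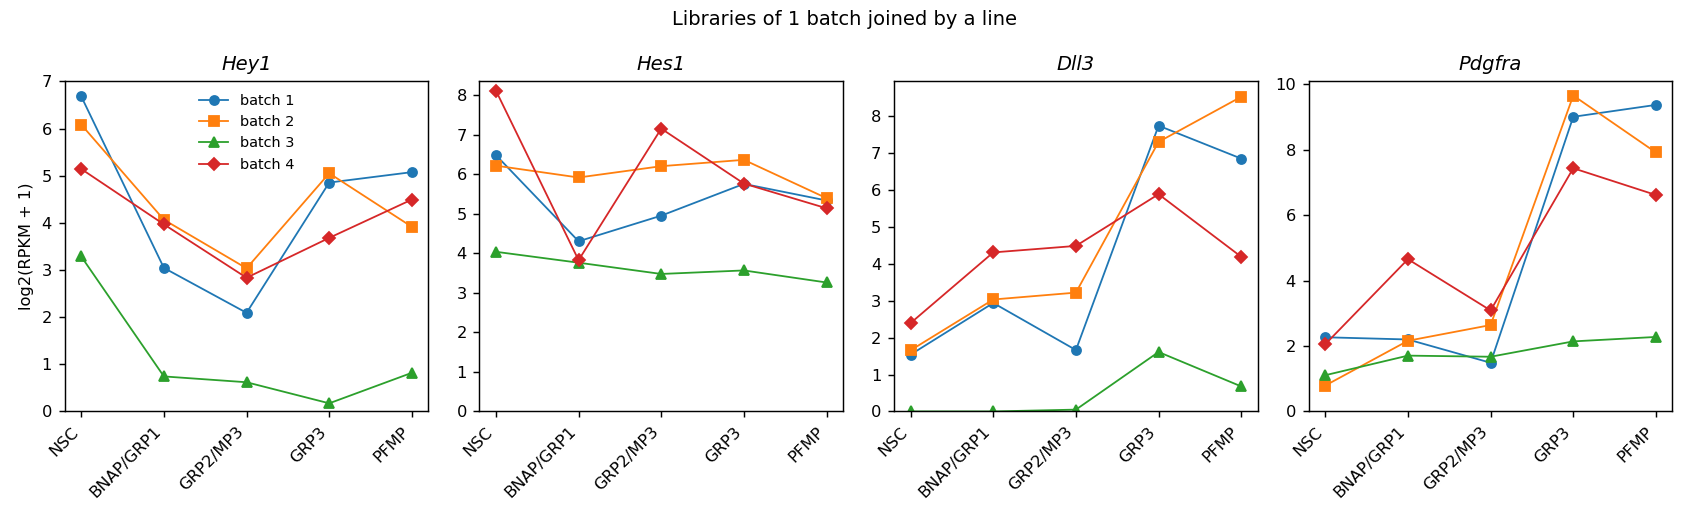
Level of Hey1, Hes1 and Dll3, and of Pdgfra, the gene of the CD140a antigen, as log2(RPKM + 1) (vertical axis) in the 5 populations (horizontal axis), where a line joins the libraries of 1 batch and carries no order in time. Hey1 is highest in NSC in all 4 batches, Dll3 is higher in GRP3 and PFMP than in NSC in all 4 batches, and Pdgfra in batch 3 stays under 4 RPKM in every population.

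The ligand Dll1, an activating Delta ligand, was at 42.8, 66.2, 0.538 and 19.95 RPKM in the 4 GRP3 libraries and at 2.36, 2.34, 0.350 and 11.03 RPKM in NSC. In PFMP it was at 19.3, 7.53, 0.316 and 5.82 RPKM. GRP3 was above NSC in every batch, and PFMP above NSC in batches 1 and 2 alone. The difference of GRP3 from NSC was 2.26 (SE 1.10, interval -0.04 to 4.56, limma adjusted p = 0.911), and with the block the limma adjusted p was 0.160. In BNAP/GRP1 Dll1 was at 4.63, 1.95, 0.332 and 16.5 RPKM, and in GRP2/MP3 at 0.637, 9.05, 0.626 and 2.18 RPKM, with differences from NSC of 0.27 (interval -2.03 to 2.57) and -0.27 (interval -2.57 to 2.03).

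Jag1, the Jagged ligand among the 10 genes, was lower in batches 1 and 2 than in batches 3 and 4 in every population. It ran from 0.492 to 3.31 RPKM in the libraries of batches 1 and 2, from 4.85 to 6.68 RPKM in batch 3, and from 5.33 to 40.9 RPKM in batch 4. It differed from NSC by -0.10 and 0.48 in the CD140a- progenitors BNAP/GRP1 and GRP2/MP3 and by 0.33 and -0.02 in the CD140a+ progenitors GRP3 and PFMP, each with an SE of 1.06 and a limma adjusted p of at least 0.979. With the block the intervals narrowed, to -0.77 to 1.73 in GRP2/MP3 for example, and still held 0.

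The receptor Notch1 was detected in all populations. It was at 13.6, 14.2, 5.05 and 7.79 RPKM in GRP3, at 12.3, 15.3, 5.73 and 3.397 RPKM in PFMP, and at 4.42, 2.33, 4.18 and 5.63 RPKM in NSC. In batches 1, 2 and 3 both CD140a+ libraries were above both CD140a- libraries, and in batch 4 they were not. By percentile of all genes in its own library, Notch1 was at 79.4 in GRP3 4 and 78.4 in PFMP 4. It was at 72.0 in BNAP/GRP1 4, the library of high median, and at 79.0 in GRP2/MP3 4. BNAP/GRP1 was at 3.98, 2.64, 4.38 and 13.2 RPKM and GRP2/MP3 at 2.59, 8.51, 4.76 and 5.92 RPKM. The difference from NSC was 1.06 in GRP3 (SE 0.57, interval -0.14 to 2.26, limma adjusted p = 1) and 0.85 in PFMP (interval -0.35 to 2.04). By CD140a it was 0.67 (SE 0.41), with limma adjusted p of 0.895 and, with the block, 0.491.

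Notch2, the other receptor, showed the opposite order in batches 1 and 2. In GRP3 it was at 0.832, 0.718, 11.3 and 13.2 RPKM and in PFMP at 1.01, 1.03, 9.39 and 7.91 RPKM. BNAP/GRP1 was at 3.57, 10.9, 10.5 and 8.15 RPKM, GRP2/MP3 at 7.68, 3.11, 10.2 and 19.5 RPKM, and NSC at 4.40, 6.02, 10.3 and 86.9 RPKM. In batches 1 and 2 the CD140a+ libraries were thus all below the CD140a- libraries and below NSC, while in batches 3 and 4 the pairs overlapped. The difference from NSC was -1.52 in GRP3 and -1.66 in PFMP, each with an SE of 0.91 and a limma adjusted p of 1. With the block the limma adjusted p was 0.264 and 0.190. The NSC mean leaned on NSC 4. Without it, the differences were -0.64 and -0.77.

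Rbpj, through which the cut receptor acts on DNA, was not called in any progenitor, with intervals that allow a change in either direction. Its means were 14.9 ± 7.02 RPKM in NSC, 20.3 ± 10.7 RPKM in BNAP/GRP1, 25.2 ± 26.4 RPKM in GRP2/MP3, 16.7 ± 7.22 RPKM in GRP3 and 12.6 ± 8.18 RPKM in PFMP (SD, n = 4). Batches differed in its spread over the populations, from 18.3 to 19.7 RPKM in batch 3 to 5.72 RPKM in PFMP and 63.8 RPKM in GRP2/MP3 in batch 2, where NSC was at 7.82 RPKM. In GRP2/MP3 the log2 difference from the NSC library of the same batch ran from -0.90 to 2.88. Its differences from NSC lay between -0.34 and 0.35, each with an SE of 0.70, so that the intervals reached from -1.80 to 1.81.

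The target Hey1 was the clearest NSC gene of the 10. It was at 102, 66.9, 8.76 and 34.3 RPKM in NSC in batches 1 to 4. In BNAP/GRP1 it was at 7.25, 15.8, 0.674 and 14.7 RPKM, and in GRP2/MP3 at 3.26, 7.20, 0.536 and 6.14 RPKM. In GRP3 it was at 27.9, 32.2, 0.127 and 11.8 RPKM, and in PFMP at 32.7, 14.1, 0.765 and 21.5 RPKM. Every progenitor library was below the NSC library of its own batch, 16 of 16. Over all batches the NSC range overlapped with those of BNAP/GRP1, GRP3 and PFMP because of NSC 3, and not with that of GRP2/MP3, whose highest value of 7.20 RPKM was below the 8.76 RPKM of NSC 3.

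Hey1 differed from NSC by -2.34 in BNAP/GRP1 (SE 1.10, interval -4.64 to -0.05, limma adjusted p = 0.826), and with the block by the same value with an interval of -3.42 to -1.27 and a limma adjusted p of 0.0155. In GRP2/MP3 the difference was -3.15 (interval -5.45 to -0.86, limma adjusted p = 0.335), and with the block the limma adjusted p was 0.000904. GRP3 and PFMP differed by -1.86 and -1.72, with limma adjusted p of 1 for both, and with the block of 0.0631 and 0.0904. With no batch term, the GRP3 difference was -0.77 without GRP3 3, and the PFMP difference -0.80 without PFMP 3. Those 2 fits kept NSC 3, the lowest NSC library for Hey1, so they mix the level of batch 3 with the difference between populations. Without batch 3 in any population the GRP3 and PFMP differences were -1.44 and -1.47, with limma adjusted p of 0.380 and 0.344 with the block. NSC was above the mean of the progenitors by 2.27 (SE 0.87, limma adjusted p = 0.373, and 0.00145 with the block). Without batch 3 the GRP2/MP3 and mean differences were -3.32 and 2.13, with limma adjusted p of 0.00945 and 0.0269, and the BNAP/GRP1 difference of -2.28 was not called, with limma adjusted p of 0.111 without and 0.0848 with the block. Beside these differences, 6 of 8 ependymal markers fell in GRP2/MP3 and 7 of 8 in each of the other progenitors in the model with no batch term. Their median log2 differences ran from -6.13 in GRP2/MP3 to -7.30 in PFMP, and at most 2 of the 8 were at 0 in any progenitor library. All 10 markers of astroglia and radial glia had values below NSC in BNAP/GRP1 and GRP2/MP3, with medians of -1.36 and -1.55 and 0 called with no batch term. Sox9 alone of the 10 was called in both with the block. In GRP2/MP3 3 of 10 microglia markers and 5 of 8 pericyte markers also rose with the block. For NSC against the mean, Aqp4, Gja1 and Sox9 of the astroglial markers were higher in NSC with the block. All 10 endothelial markers had values above the progenitor mean in NSC (median 1.31). With the block 0 were called and 7 were under an unadjusted p of 0.05 in limma, beside 12.4% of all genes. With no batch term 0 were called and 3 were under it, beside 6.87% of all genes. Their sum was 334, 147, 16.1 and 59.1 RPKM in NSC in batches 1 to 4, and 9.78 to 166 RPKM in GRP2/MP3. The part of any of these cells in the Hey1 results was not tested.

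Hes1, a target found in many cell types, was at 88.5, 73.4, 15.4 and 276 RPKM in NSC. It was at 18.8, 59.4, 12.6 and 13.2 RPKM in BNAP/GRP1, at 30.0, 72.7, 10.1 and 141 RPKM in GRP2/MP3, at 53.0, 81.4, 10.9 and 53.4 RPKM in GRP3, and at 39.4, 41.1, 8.59 and 34.2 RPKM in PFMP. In 15 of 16 progenitor libraries it was below the NSC library of the same batch, the exception being GRP3 2. The difference from NSC was -1.76 in BNAP/GRP1 (SE 0.89, interval -3.62 to 0.10, limma adjusted p = 0.866, and 0.124 with the block). In PFMP it was -1.43, with limma adjusted p of 1 and, with the block, 0.245. GRP2/MP3 and GRP3 differed from NSC by -0.77 and -0.85, within 1 SE of 0 with no batch term. With the block the SE was 0.55, and the limma adjusted p 0.853 and 0.748. NSC was above the mean of the progenitors by 1.20, with an interval of 0.30 to 2.11 and a limma adjusted p of 0.171 with the block. With no batch term and 1 library left out, this difference ran from 0.57 without NSC 4 to 1.93 without NSC 3. In BNAP/GRP1 and GRP3 the differences from NSC were -1.13 and -0.22 without NSC 4, and -2.49 and -1.58 without NSC 3.

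Hes5, a target closely tied to Notch activity in neural stem cells, was not an NSC gene in these libraries. It was at 31.9, 39.8, 1.32 and 25.1 RPKM in NSC and at 103, 101, 2.00 and 23.9 RPKM in PFMP. GRP3 was at 59.2, 59.3, 1.67 and 10.95 RPKM, BNAP/GRP1 at 35.4, 105, 0.594 and 13 RPKM, and GRP2/MP3 at 8.72, 19.1, 0.859 and 9.88 RPKM. GRP2/MP3 was below NSC in all 4 batches, and PFMP was above NSC in batches 1, 2 and 3. The CD140a- progenitors BNAP/GRP1 and GRP2/MP3 differed from NSC by 0.02 and -1.09, and the CD140a+ progenitors GRP3 and PFMP by 0.13 and 0.82, each with an SE of 1.35. The block lowered the SE to 0.48, and the GRP2/MP3 difference then had an interval of -2.09 to -0.09 with a limma adjusted p of 0.370.

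Hey2, the other Hey gene, was low everywhere. Its means were 1.59 ± 1.15 RPKM in NSC, 2.92 ± 3.48 RPKM in BNAP/GRP1, 2.598 ± 2.78 RPKM in GRP2/MP3, 1.87 ± 1.35 RPKM in GRP3 and 1.04 ± 1.15 RPKM in PFMP (SD, n = 4). It was listed at 0 in the GRP2/MP3, GRP3 and PFMP libraries of batch 3. Its differences from NSC lay between -0.37 and 0.33, each with an SE of 0.74.

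The populations were also set in the order of their mean log2 level for each gene. Hey1 went from NSC over PFMP, GRP3 and BNAP/GRP1 to GRP2/MP3, and Dll3 from GRP3 over PFMP, BNAP/GRP1 and GRP2/MP3 to NSC. Hes1 was highest in NSC and lowest in BNAP/GRP1, and Hes5 highest in PFMP and lowest in GRP2/MP3. Of the 40 steps between neighbouring populations, 4 for each gene, 0 passed the threshold of limma in either model. The lowest adjusted p of a step was 0.675 with no batch term (Dll3, PFMP above BNAP/GRP1) and 0.0904 with the block (Hey1, NSC above PFMP). In the 6 direct comparisons of the progenitors 0 of 10 genes were called, as were 0% of all genes in both models. At an unadjusted p under 0.05 between 0 and 2 of the 10 genes passed with no batch term, beside 0.304% to 4.91% of all genes, and between 0 and 4 with the block, beside 0.945% to 18.9%.

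The rest of the pathway was followed in 61 further genes, all of which passed the filter. With no batch term 0 of 61 were called in any of the 6 comparisons, and between 1 and 5 passed at an unadjusted p under 0.05, beside 4.41% to 6.87% of all genes. With the block 0 were called in BNAP/GRP1, 1 each in GRP2/MP3, GRP3, PFMP and NSC against the mean, and 2 by CD140a, beside 1.44% to 4.36% of all genes. The median log2 differences of the 61 genes from NSC were 0.26 for BNAP/GRP1 and 0.05 for GRP2/MP3 (all genes tested, 0.38 and -0.08), and 0.21 for GRP3 and -0.03 for PFMP (all genes tested, 0.05 and -0.20). The medians of the 10 genes above, in the same order, were 0.15, -0.02, 0.14 and -0.18.

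**Figure D5:**
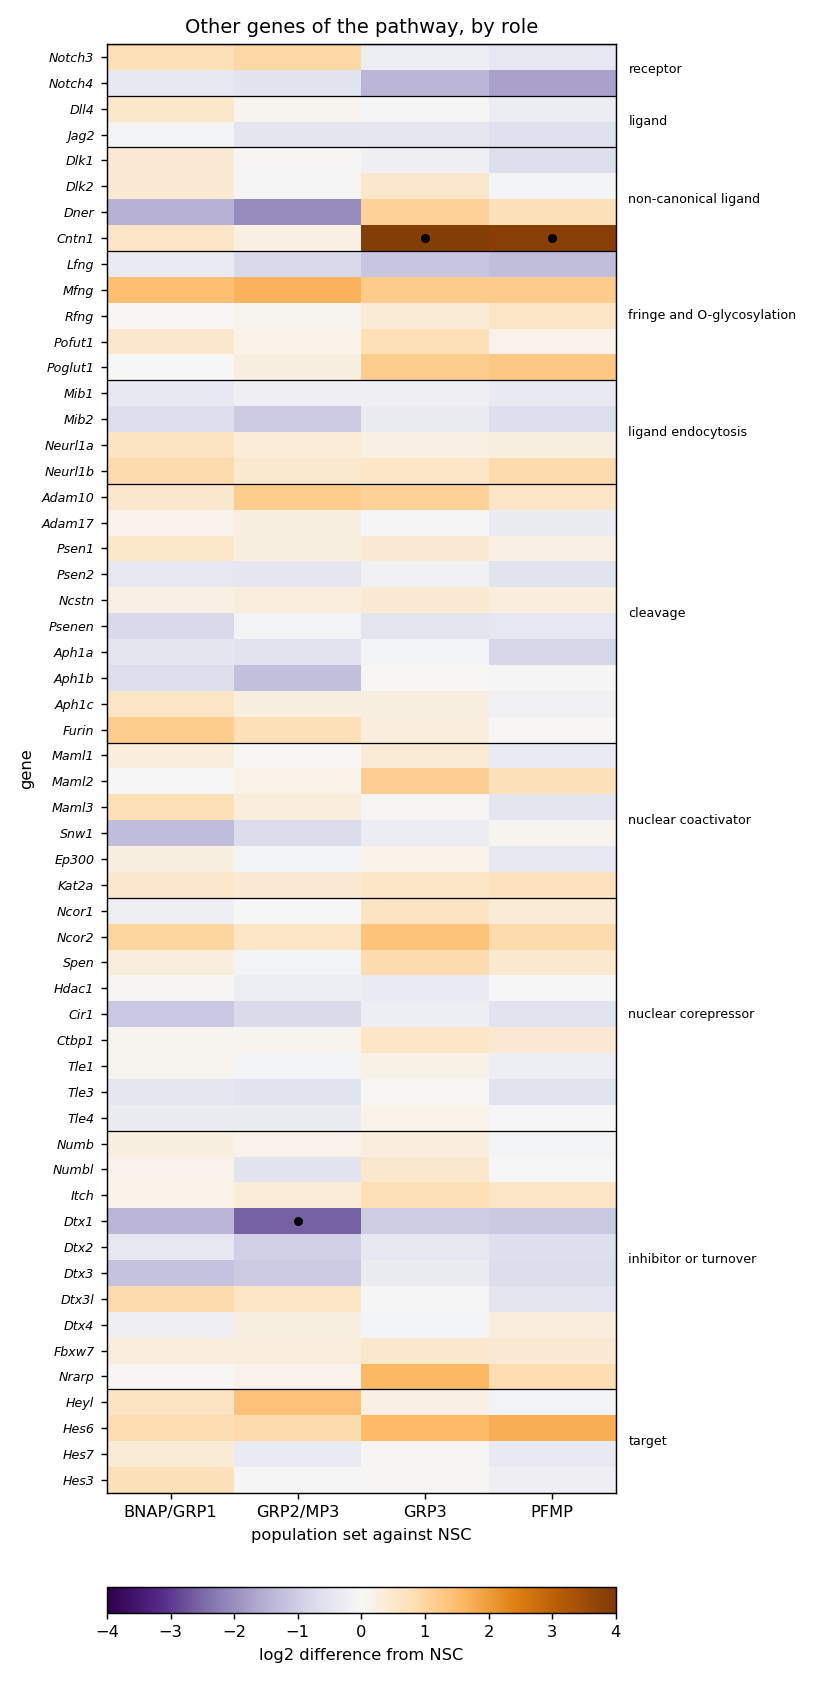
Difference from NSC in mean log2(RPKM + 1) (colour, orange higher and purple lower than NSC) of further pathway genes (rows, grouped by role, without the proneural genes) in the 4 progenitors (columns). Black dots mark the genes called with the batch as a block, Cntn1 in GRP3 and PFMP and Dtx1 in GRP2/MP3, and with all 20 libraries no gene of the list was called without it.

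Cntn1, which encodes contactin, an adhesion molecule of neural cells that can bind Notch as a non-canonical ligand, was at 137, 228, 0.602 and 241 RPKM in GRP3 and at 533, 102, 0.744 and 102 RPKM in PFMP. In NSC it was at 6.36, 1.57, 0.323 and 7.95 RPKM. In all 4 batches both CD140a+ libraries were above both CD140a- libraries. With the block it rose in GRP3 by 3.94 (limma adjusted p = 0.0189), in PFMP by 3.86 (0.0213) and in the CD140a+ pair by 3.47 (0.0377), and with no batch term the limma adjusted p was 0.646, 0.648 and 0.767. Without batch 3 and with no batch term these differences were 5.15, 5.01 and 4.38, with limma adjusted p of 0.00848, 0.00952 and 0.00574. Dner, another non-canonical ligand, was likewise above both CD140a- libraries in both CD140a+ libraries of each batch, at 115, 179, 0.897 and 36.9 RPKM in GRP3 and 283, 65.4, 0.743 and 17.5 RPKM in PFMP. It was at 39.5, 17.9, 3.96 and 19.1 RPKM in NSC, and only the CD140a difference of 2.68 passed with the block (limma adjusted p = 0.0377, and 0.894 with no batch term). Without batch 3 it was 3.29, with limma adjusted p of 0.0152 with no batch term. Between the CD140a pairs, all 9 OPC markers given with Dll3 also had higher values in the CD140a+ pair. In NSC they did not follow Dner, which in batch 3 was higher in NSC than in GRP3 and PFMP. The part of OPCs in the Cntn1 and Dner results was not tested.

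Mfng, a fringe glycosyltransferase that modifies Notch receptors, was at 2.24, 4.22, 6.81 and 1.65 RPKM in NSC and was higher in the same-batch library of every progenitor, 16 of 16. NSC differed from the mean of the progenitors by -1.38 (limma adjusted p = 0.175 with no batch term and 0.0324 with the block, and 0.0636 with the block without batch 3). Dtx1, a deltex ubiquitin ligase that acts on Notch, was at 28.5, 53.7, 15.6 and 15.4 RPKM in NSC and at 0.477, 1.64, 8.87 and 8.07 RPKM in GRP2/MP3, with no overlap. It differed there by -2.57 (SE 0.67, limma adjusted p = 0.0803, and 0.0242 with the block). Without batch 3 it was -3.18, with limma adjusted p of 0.0610 and, with the block, 0.0362. With BNAP/GRP1 4 left out and no batch term the limma adjusted p was 0.0474. Microglia and pericyte markers stood beside these genes in GRP2/MP3, where their sums were 706 to 4990 and 125 to 7477 RPKM, against 23.8 to 1869 and 5.30 to 117 RPKM in NSC. The microglia sum was 110 to 5821 RPKM in BNAP/GRP1. In GRP3 and PFMP outside batch 3, where Mfng was also above NSC, it was at most 118 RPKM, against at most 79.9 RPKM in NSC outside batch 3. The part of microglia and pericytes in the Mfng and Dtx1 results was not tested.

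None of the remaining genes of the wider list was called in either model. Among the most abundant of them by role, Psenen, a subunit of gamma-secretase, had a mean of 511 RPKM over the 20 libraries, and Psen2, one of its catalytic subunits, 37.98 RPKM. The corepressor gene Ncor1 had a mean of 57.0 RPKM and the corepressor gene Ctbp1 46.9 RPKM. The coactivator genes Maml2 and Snw1 had means of 41.1 and 39.5 RPKM, and Maml2 was at 36.2 to 310 RPKM in batch 4 and at 0.962 to 12.6 RPKM in the other batches. The receptors Notch3 and Notch4, with means of 1.62 and 2.72 RPKM, and the ligands Dll4 and Jag2, with 0.657 and 0.611 RPKM, were low. Hes6, a Hes gene that opposes Hes1, had a mean of 44.2 RPKM and differed from NSC by 1.72 in PFMP (limma adjusted p = 0.876, and 0.122 with the block). Nrarp, a target and feedback inhibitor of Notch, was at 72.2, 90.6, 1.08 and 12.4 RPKM in GRP3 and at 16.6, 6.69, 1.39 and 6.50 RPKM in NSC.

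To place each gene among all others, Pearson's r of log2(RPKM + 1) over the 20 libraries was taken after the mean of each batch was removed, among 12219 genes with a mean of at least 5 RPKM. It is a description over libraries that share batches and populations. Dll3 was most like Sox10 (r = 0.981), Sox8 (0.978) and Olig1 (0.970), which encode transcription factors of the oligodendrocyte lineage. Sox10 and Olig1 are also in the list of OPC markers. Hey1 was most like Fhl1 (0.954), Mro (0.953) and Lppr4 (0.946). Hes5 was most like Sox5 (0.831) and Sema5b (0.797), and Hes1 like Fam60a (0.882), Sod1 (0.820) and Dnajc24 (0.814). For Notch1 the 3 genes were Gatsl2 (0.949), S1pr2 (0.942) and Rere (0.940), and for Notch2 Plin3 (0.893), B4galt1 (0.866) and Clic1 (0.857). Dll1 was most like D930016D06Rik (0.957), Alkbh8 (0.932) and Hspa13 (0.927), and Jag1 like Foxo3 (0.909), Gm24069 (0.879) and Gm24130 (0.872). Rbpj was most like Fndc3b (0.932), Yy1 (0.930) and Frmd4a (0.919), and Hey2 like Hace1 (0.841), Gm37678 (0.814) and Pced1a (0.798).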

How the data were processed

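The authors sorted the cells, amplified polyA RNA (MessageAmp II aRNA), made Illumina TruSeq libraries and sequenced them on a NextSeq500. They trimmed reads with cutadapt 3.4, aligned them to GRCm38 with STAR 2.6.1, quantified them with Salmon 1.9.0 and tested them with DESeq2 1.26.0, per the submitters' processing notes. The deposited values are RPKM for 45705 genes in 20 libraries. The read total, gene lengths and annotation release are not given in the sources used here, so absolute depth is unknown and no counting interval is given. Relative depth was read from low values that stood in whole-number ratios. The progenitor gates were read from the study's gating scheme. The table's 26 empty columns were not used.

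RPKM was taken as log2(RPKM + 1), so a difference understates the change of a low gene. The 27614 genes that reached 1 RPKM in 4 or more libraries were tested with limma 3.58.1 in R 4.3.3 (trended prior, all 20 libraries, 1 mean for each population, no batch term, as the study names none), with Benjamini-Hochberg adjustment and 0.05 as the threshold. The steps were tested on simulated data. The batch numbers pair the samples by label. After population means were removed, pairs of libraries from batches 1, 2, 3 and 4 had median correlations of 0.337, 0.262, 0.769 and 0.581 (lowest 0.034), and pairs from different batches of -0.254. The batch as a replicate block was an alternative, beside another pseudocount (0.1), no filter, a stricter filter (mean of at least 5 RPKM), median-of-ratios scaling, quantile normalization, each library left out, and batch 3 left out. Whether the litters of the batches were unrelated is not stated, so p-values measure the spread between these samples. Genes named are the 10 members, wider pathway genes called in any comparison or among the 2 most abundant of their role, the 3 genes most like each member, and markers given beside a result. Results for 2 genes that this rule names are not reported here. The members and lists were chosen with earlier results of these data known. Positions are from GENCODE vM21, and figures were drawn with Python 3.11.15 and matplotlib 3.10.9.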

Additional observations from a re-analysis of the deposited data

Results flagged for a closer look

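For each of 10 Notch genes and 5 populations, the highest or lowest of the 4 libraries was compared in RPKM with the nearest other. In 4 of 50 such groups the gap, as a share of the range, exceeded Dixon's 95% critical value for 4 samples. About 1 in 20 groups would exceed it if values were normally distributed. RPKM was not shown to be so, and the log2(RPKM + 1) scale of the tests was not used here. The count of 4 is thus not measured against chance. Notch1 in BNAP/GRP1 4 was at 13.18 RPKM, against 4.384 RPKM in the next library. BNAP/GRP1 4 had the lowest estimated depth, and Notch1 lay there at the 72.0 percentile of all genes, against 71.6 to 80.3 in the other BNAP/GRP1 libraries. Notch2 in NSC 4 was at 86.85 RPKM, against 10.26 RPKM in the next. Jag1 in GRP3 4 was at 40.93 RPKM, against 6.257 RPKM in the next. Hes1 in BNAP/GRP1 2 was at 59.44 RPKM, against 18.75 RPKM in the next.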

How the results depend on the processing

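With the batch as a replicate block, the genes called rose from 0 to 1 in each of BNAP/GRP1, GRP2/MP3, GRP3, PFMP and the CD140a comparison and to 2 for NSC against the mean. Without batch 3, with or without the block, the counts were 1 in GRP2/MP3, GRP3, PFMP and the CD140a comparison, 2 for NSC against the mean and 0 in BNAP/GRP1. The calls were those of Dll3 and Hey1 given above, and no other member was called in either setting. With no batch term, where the count with all 20 libraries was already 0, leaving out any single library gave 0 calls among the 10 genes. Another pseudocount, either filter and either scaling, also with no batch term, gave 0 as well. The block was not combined with these settings, so they do not show whether the calls made with the block would hold. The stricter filter dropped Hey2. The median over all genes moved from 0.38 to 0.09 in BNAP/GRP1 against NSC, and from -0.20 to 0.07 in PFMP, under quantile normalization. The cause of these changes was not tested. No call of a member turned its direction under any setting. Values near 0 did. Under quantile normalization the difference from NSC was -0.0329 for Notch1, -0.12 for Hes5 and -0.14 for Hey2 in BNAP/GRP1, 0.0411 for Jag1 in PFMP and -0.0672 for Hey2 in GRP3, Hes5 was at -0.11 for NSC against the mean, and Jag1 at 0.30 in the CD140a comparison. Under median-of-ratios scaling it was 0.0153 for Jag1 in PFMP, -0.0524 for Hes5 in BNAP/GRP1, and -0.0127 for Hes5 and -0.0025 for Hey2 in GRP3. With a pseudocount of 0.1 it was 0.0175 for Jag1 and -0.11 for Hes5 in BNAP/GRP1, 0.22 for Jag1 in PFMP and -0.0155 for Hey2 in GRP3, and Hey2 was at 0.0573 for NSC against the mean. With 1 library left out, 37 of 60 differences of the 10 genes kept their sign, and the other 23 changed it, over these ranges.
Notch1 ran from -0.12 to 0.54 in BNAP/GRP1. Notch2 ran from -1.13 to 0.21 in BNAP/GRP1 and -1.01 to 0.34 in GRP2/MP3. Dll1 ran from -0.39 to 0.85 in BNAP/GRP1 and -0.85 to 0.30 in GRP2/MP3. Jag1 ran from -0.59 to 0.72 in BNAP/GRP1, -0.27 to 1.30 in GRP2/MP3, -0.63 to 1.15 in GRP3, -0.51 to 0.80 in PFMP, -0.9955 to 0.31 in NSC against the mean and -0.52 to 0.34 in the CD140a comparison. Rbpj ran from -0.31 to 0.84 in GRP2/MP3, -0.10 to 0.50 in GRP3 and -0.34 to 0.13 in NSC against the mean. Hes1 ran from -0.21 to 0.42 in the CD140a comparison. Hes5 ran from -0.93 to 1.16 in BNAP/GRP1, -0.83 to 1.06 in GRP3, -0.13 to 1.93 in PFMP and -0.39 to 0.98 in NSC against the mean. Hey2 ran from -0.20 to 0.74 in BNAP/GRP1, -0.22 to 0.73 in GRP2/MP3, -0.27 to 0.56 in GRP3 and -0.30 to 0.30 in NSC against the mean. The absolute depth of the libraries is unknown, so a level listed at 0 is not taken as absent.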

Other observations

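After the mean of each batch was removed, Notch1 moved with Dll1 (Pearson's r = 0.814) and Dll3 (0.832) over the 20 libraries, and Dll1 with Dll3 (0.730). Notch2 moved against Notch1 (-0.706) and against Dll3 (-0.763). The targets moved together less, with r of 0.375 for Hes1 and Hey1, 0.431 for Hes5 and Hey1 and 0.040 for Hes1 and Hes5. With batch means left in, these 3 values were 0.701, 0.785 and 0.616. The values are descriptions over libraries that share populations, chosen from 45 pairs of the 10 genes after all were seen. The 3 genes most like each member also changed when batch means were left in. For Dll3, Olig1 (0.981) and Sox10 (0.970) were again among the first 3, with Matn4 (0.973), and for Hey1 Fhl1 was again the first.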
